A study of Mus musculus with 10 samples.

Results

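The extracellular matrix genes described here are the collagen chains, the laminin chains and a set of matrix glycoproteins and proteoglycans in a mouse embryonic stem (ES) cell line. They were chosen by symbol from the RNA-seq count table, which has 1 row per gene. The symbols taken were those of collagen and laminin chains and Fn1, Sparc, Nid1, Nid2, Hspg2, Agrn, Fbn1, Fbn2, Vcan, Tnc, Postn, Dcn, Bgn and Lum. Of 69 genes with such a symbol, 54 reached 0.2 CPM (reads of a gene scaled to the size of its library) on average over the 6 libraries, of 30677 genes in the table. The 15 others were below that level. Just inside the limit were Col14a1 at 0.208, Col5a2 at 0.240 and Col16a1 at 0.269 CPM, and just outside it Lama2 at 0.167, Col4a4 at 0.169 and Col6a6 at 0.179 CPM. All 54 had enough counts to be tested, as had 20027 genes in all.

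The cells were TNGA, a mouse ES cell line with a GFP reporter on a single Nanog allele, grown with serum and LIF. Cultures were treated for 48 h with 100 µM MB-3, an inhibitor of the histone acetyltransferase Kat2a (Gcn5), or with DMSO, its solvent, and every culture in both groups held 0.1% DMSO. PolyA RNA from 3 DMSO and 3 MB-3 cultures, each lettered A, B and C, was sequenced to between 42270312 and 51137896 counts per library, so 1 CPM stood for 42.9 to 50.2 reads. Acetylation of histone H3 at lysine 9 (H3K9ac) was mapped by ChIP-seq in duplicate cultures, merged by the authors into 1 peak list per treatment. All samples came from this line, so values apply to it alone. The p-values with treatment as the only term measure the spread between these cultures. Where the letter was put in the fit as a replicate block, they measure the spread left after differences between letters are removed. The label was checked against 12 genes of undifferentiated ES cells. Their summed level was 5378, 5679 and 5047 CPM in DMSO replicates A, B and C and 5142, 5459 and 5244 CPM in MB-3, with Dppa5a the most abundant at 1386 CPM.

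The basement membrane is the thin sheet of matrix on which epithelia rest. It is built from a laminin network, in which each molecule joins an alpha, a beta and a gamma chain, and from a type IV collagen network, with nidogens and the proteoglycans perlecan and agrin linking both. Fibrillar collagens form instead the tensile fibres of connective tissue, and fibril-associated collagens decorate their surface. Laminin and type IV collagen appear early in the mouse embryo, and cultured ES cells deposit them, whereas type I collagen is typical of mesenchymal cells such as fibroblasts.

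ES cells transcribed basement membrane genes at much higher levels than fibrillar genes. Scaled to exon length, the 18 basement membrane members had a median of 4.03 CPM per kb over the 6 libraries and the 10 fibrillar members a median of 0.149 CPM per kb. The order was led by Fn1, which encodes fibronectin, a matrix glycoprotein bound by integrins, at 122 CPM per kb. Next came Lamc1, the common laminin gamma chain, at 51.3 and Nid2, a nidogen, at 50.8 CPM per kb, which lay close together. Col18a1, a basement membrane collagen whose end fragment is endostatin, followed at 43.8, ahead of Agrn (agrin) at 29.1, Hspg2 (perlecan) at 22.5 and Lama5 at 20.5 CPM per kb. Sparc, a collagen-binding glycoprotein, stood at 19.1 and Nid1 at 17.3 CPM per kb. The highest fibrillar member was Col5a1, a type V chain that helps to start fibrils, at 1.09 CPM per kb. Col2a1, the cartilage type II chain, followed at 0.583 CPM per kb, and the type I chains Col1a1 and Col1a2 were at 0.112 and 0.106 CPM per kb.

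**Figure D1:**
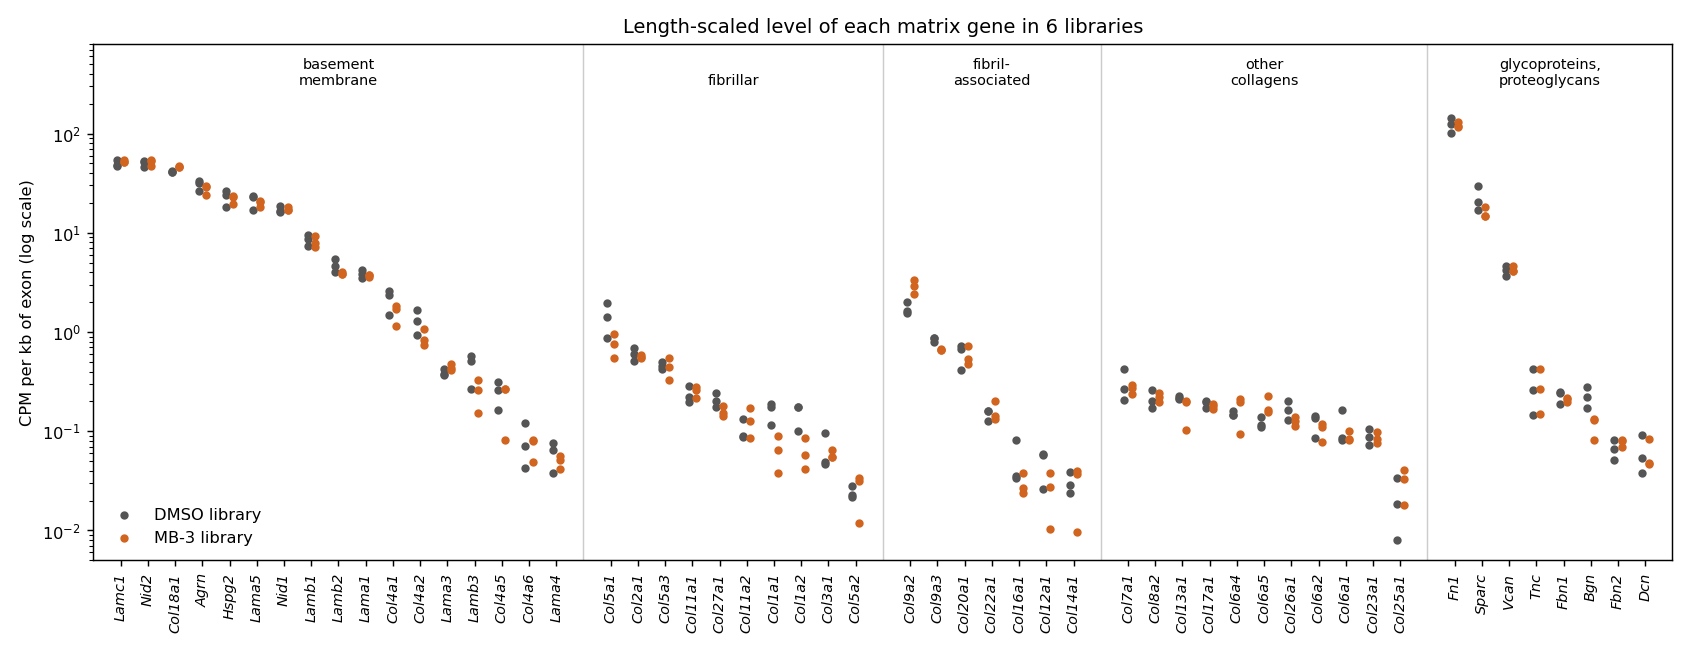
Level of 53 of the 54 matrix genes in CPM per kb of exon on a log axis, grouped by role, with 1 point per library (3 DMSO, 3 MB-3). Most basement membrane genes lie above the fibrillar genes, whose medians are 4.03 and 0.149 CPM per kb, and Fn1 is highest at 122 CPM per kb.

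The RNA of chains that join, or of related genes, was often not at equal levels. Per kb of exon, Lamc1 was 5.12 to 7.17 times as high as the beta chain Lamb1 in the 6 libraries and 2.07 to 2.87 times as high as the alpha chain Lama5. Lama5 was in turn 4.81 to 6.08 times as high as Lama1, the alpha chain of the first laminin of the embryo. Nid2 exceeded Nid1 by 2.78 to 3.18 times on the same scale, and these ranges hold the DMSO and MB-3 libraries together. The type IV chains Col4a1 and Col4a2, which join at 2 to 1 in the common trimer, had a ratio of 1.55 to 2.04 per kb. The type I chains, which also join at 2 to 1, had a Col1a1 to Col1a2 ratio of only 0.906 to 1.16, although exon length here counts every annotated exon of a gene. Nid1, Nid2, Fn1, Col4a1 and Col4a2 share exon bases with a gene on the opposite strand, and since use of the strand in counting is not stated, their counts may hold reads of both.

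With treatment as the only term, 1 of the 54 members passed the test between MB-3 and DMSO, against 0.205% of all genes tested (edgeR's quasi-likelihood test, adjusted p under 0.05). That gene was Col9a2, which rose. At an unadjusted p under 0.05, 11 members were lower and 3 higher, beside 5.76% and 5.13% of all genes. The fitted log2 fold changes ran from -1.32 to 0.75 with a median of -0.08, against -0.00 over all genes tested, and 37 of the 54 were negative. The median was -0.11 for basement membrane, -0.10 for fibrillar, -0.07 for fibril-associated and -0.09 for the 11 other collagens, and -0.03 for the 8 glycoproteins and proteoglycans. The groups did not overlap in 5 members that were lower (7.37% of all genes) and 3 that were higher (8.23% of all genes).

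The same order of replicates recurred in many matrix genes. In 19 members (35.2%) replicate C was the highest and replicate B the lowest of both groups, against 6.06% of all genes, and 11 of these 19 were basement membrane genes. With the letter in the fit as a replicate block, edgeR called 13 of the 54 members, or 24.1%, against 7.12% of all genes. Of these, 11 were lower (3.9% of all genes) and 2 higher (3.22% of all genes). The lower ones included Col4a1, Col4a2, Lamb2, Lamb3, Agrn, Col1a1, Col1a2, Col5a1, Sparc and Bgn, and the higher ones Col18a1 and Col9a2. When both libraries of 1 letter were left out in turn, edgeR with the block called 10 to 12 members, and 8 of the 13 passed in all 3 such fits. Those that did not included Col18a1, Agrn, Lamb2 and Bgn. MB-3 was lower than DMSO in all 3 letters in 17 members and higher in 7, where 20.3% of all genes did each. What a letter marks is not given in the labels. With 3 libraries in each group, the smallest p of an exact permutation test that ignores the letters is 0.10.

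**Figure D2:**
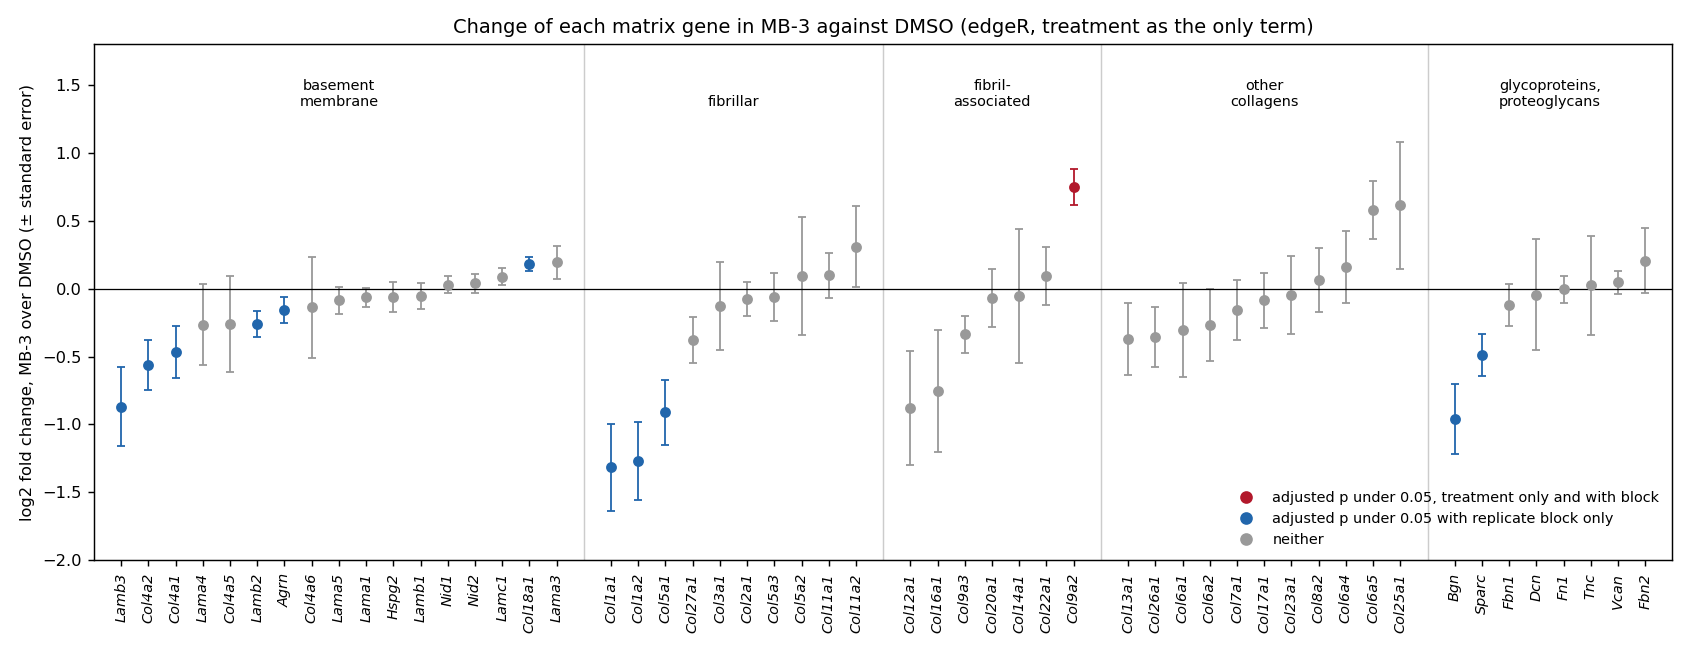
Log2 fold change of 53 of the 54 matrix genes in MB-3 over DMSO, with its standard error, from edgeR with treatment as the only term, grouped by role. Col9a2 at 0.75 alone passes the threshold in that fit (red), and 11 more of those drawn pass it once the replicate letter is a block (blue), most of them below 0 with Col1a1 lowest at -1.32.

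Among basement membrane genes, the most abundant laminin chains and both nidogens had fitted changes within 0.1 on the log2 scale with all libraries, and the genes lower with the replicate block included Col4a1, Col4a2, Lamb2 and Lamb3. Of the 18 members, 0 passed without the block. At an unadjusted p under 0.05, 1 was higher and 4 were lower, beside 5.13% and 5.76% of all genes. With the replicate block 1 was higher and 6 were lower, beside 3.22% and 3.9% of all genes. Lamc1 (GRCm38 chr1:153218922-153332786) was at 444, 390 and 399 CPM in DMSO A, B and C and at 448, 431 and 432 CPM in MB-3. The groups overlapped, and its log2 fold change was 0.09 (standard error 0.06, edgeR adjusted p = 0.637, or 0.224 with the block), with 0.05 without DMSO B and 0.15 without DMSO A. Nid2 differed by 0.04, Nid1 by 0.03, Lama1 by -0.06, Lamb1 by -0.05, Hspg2 by -0.06 and Lama5 by -0.09 on the log2 scale, and none of them passed either fit.

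Col4a1 and Col4a2, the chains of the most widespread type IV collagen, moved together. They and the laminin chains of the next paragraphs are described because they were called with the block, a choice made after their values were seen. Col4a1 (chr8:11198423-11312826) was at 17.6, 11.2 and 19.6 CPM in DMSO A, B and C and at 12.6, 8.58 and 13.8 CPM in MB-3. Col4a2 (chr8:11312805-11449287) was at 8.53, 6.18 and 11.0 CPM in DMSO and at 5.48, 4.92 and 7.04 CPM in MB-3. In both genes replicate B was lowest and C highest in each group, the groups overlapped, and MB-3 was lower within every letter. The log2 fold changes were -0.47 (standard error 0.19) and -0.56 (standard error 0.18). Neither passed with treatment as the only term (edgeR adjusted p = 0.379 and 0.276), and with the block the adjusted p-values were 4.8e-05 and 0.00029. Without DMSO C the log2 fold changes were -0.30 for Col4a1 and -0.34 for Col4a2, and Col4a1 had -0.29 without MB-3 B.

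The type IV pair lies head to head. On chr8 the transcripts of Col4a1 (minus strand) and Col4a2 (plus strand) start at positions 11312826 and 11312805, so that both annotated genes share 22 bases. RefSeq promoter windows, from 250 bases before to 50 after each gene's start on GRCm38.p6, were at hand for 37 of the 54 members (42 windows). The stretch upstream of Col4a1 is shown for its CCAAT motif, read on the opposite strand as ATTGG, in capitals. It lies at chr8:11312954-11312983, given on the minus strand, positions -157 to -128 from the Col4a1 start, in a first exon annotated for Col4a2.
Col4a1 upstream: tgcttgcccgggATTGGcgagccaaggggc
The letters CCAAT occurred on either strand in 35.7% of the member windows and in 37.4% of all 32851 windows. A match of letters is a description and not a measured binding site.

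Lamb3, a beta chain of the laminin that anchors stratified epithelia, was also lower with the block. Lamb3 (chr1:193207699-193343878) was at 3.38, 1.77 and 3.82 CPM in DMSO A, B and C and at 1.71, 1.00 and 2.19 CPM in MB-3. Its groups overlapped only through DMSO B, and the log2 fold change was -0.87 (standard error 0.29, edgeR adjusted p = 0.283, or 0.00036 with the block). The alpha chain of the same laminin, Lama3, had a log2 fold change of 0.19 and passed neither fit (edgeR adjusted p = 0.357 with the block). Lama3 also shares exon bases with an opposite-strand gene.

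Lamb2, a beta chain of the mature kidney and neuromuscular basement membrane, was at 27.9, 24.3 and 33.0 CPM in DMSO and at 23.3, 23.2 and 24.6 CPM in MB-3. All MB-3 libraries were below DMSO A and C and beside DMSO B, with a log2 fold change of -0.26 (edgeR adjusted p = 0.328, or 0.0106 with the block), and of -0.14 without DMSO C. Agrn was at 298, 245 and 312 CPM in DMSO and at 271, 222 and 275 CPM in MB-3, a log2 fold change of -0.16 (edgeR adjusted p = 0.571, or 0.0163 with the block). Without single libraries its fold change ran from -0.26 (without DMSO B) to -0.07 (without MB-3 B), with -0.09 without DMSO C, and it no longer passed when any single letter was left out of the blocked fit. The least abundant basement membrane members were less tightly measured. Col4a5, Col4a6 and Lama4, each under 0.3 CPM per kb, had standard errors of 0.35, 0.37 and 0.30 on the log2 scale.

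Col18a1 went the other way. Its levels were 290, 285 and 292 CPM in DMSO A, B and C and 326, 323 and 332 CPM in MB-3, so the MB-3 libraries all exceeded the DMSO libraries. The change was small and the replicates were close, with a log2 fold change of 0.18 (standard error 0.05). It did not pass with treatment as the only term (edgeR adjusted p = 0.227) and passed with the block (adjusted p = 0.0057), though not when letter B was left out of the blocked fit (adjusted p = 0.058).

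**Figure D3:**
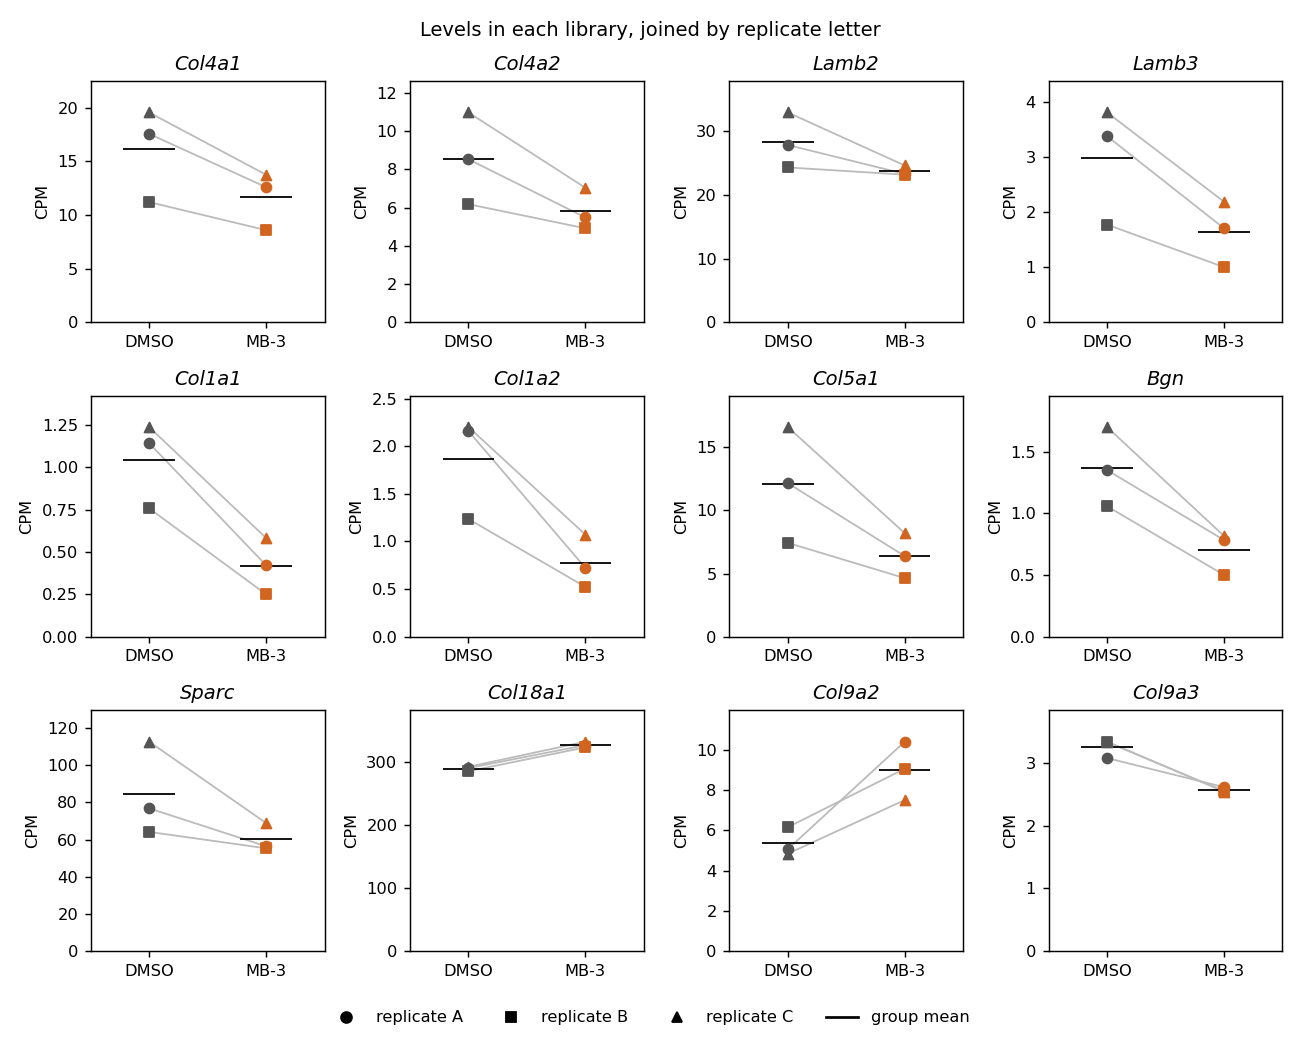
CPM of 12 matrix genes in each library, on axes that start at 0, with lines joining DMSO and MB-3 libraries of the same replicate letter and bars at the group means. In Col4a1, Col4a2, Lamb2, Lamb3, Col1a1, Col1a2, Col5a1, Bgn and Sparc all 3 lines fall and replicate C lies above B in both groups, whereas all 3 lines rise in Col18a1 and Col9a2.

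The fibrillar collagens that were lower with the block were Col1a1, Col1a2 and Col5a1. Of the 10 members, 0 passed with treatment as the only term. At an unadjusted p under 0.05, 4 were lower and 0 higher, beside 5.76% and 5.13% of all genes. With the block 3 were lower and 0 higher, beside 3.9% and 3.22% of all genes. Col1a1 (chr11:94936224-94953042), the main chain of type I collagen, was at 1.14, 0.757 and 1.24 CPM in DMSO A, B and C and at 0.422, 0.250 and 0.583 CPM in MB-3. The MB-3 libraries all lay under the DMSO libraries, and the mean fell from 1.05 ± 0.25 to 0.418 ± 0.17 CPM (SD, n = 3), with 11 to 59 reads behind each value. The log2 fold change was -1.32 (standard error 0.32), the lowest of the 54 members, and edgeR gave an adjusted p of 0.145, or 0.0023 with the block.

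Col1a2, the partner chain of type I collagen, was at 2.16, 1.24 and 2.20 CPM in DMSO A, B and C and at 0.723, 0.523 and 1.07 CPM in MB-3. These groups did not overlap either. The log2 fold change was -1.27 (standard error 0.29, edgeR adjusted p = 0.106, or 0.00012 with the block). DESeq2 called Col1a2, and edgeR without a filter on low counts called Col1a1, Col1a2 and Col5a1 as well as Col9a2.

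Col5a1 (chr2:27886425-28039514), the most abundant fibrillar member, was at 12.2, 7.43 and 16.6 CPM in DMSO A, B and C and at 6.39, 4.64 and 8.20 CPM in MB-3. MB-3 was lower within every letter, and the groups overlapped because MB-3 C lay above DMSO B. The log2 fold change was -0.91 (standard error 0.24, edgeR adjusted p = 0.183, or 2.1e-08 with the block). Col5a1 shares exon bases with 2 genes on the opposite strand. Its partner chains Col5a2 and Col5a3 had log2 fold changes of 0.09 and -0.06, smaller than their standard errors of 0.43 and 0.18.

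Stretches upstream of Col1a2 and Col5a1, both lower with the block, are shown. The letters GGGCGG, the GC box known as a binding motif of Sp factors, are in capitals. The Col1a2 stretch is chr6:4505370-4505492 on the plus strand, positions -248 to -126 from the RefSeq start and inside the longer annotated gene span. The Col5a1 stretch is chr2:27886225-27886424 on the plus strand, positions -200 to -1 from its start. Both are from RefSeq on GRCm38.p6.
Col1a2 upstream: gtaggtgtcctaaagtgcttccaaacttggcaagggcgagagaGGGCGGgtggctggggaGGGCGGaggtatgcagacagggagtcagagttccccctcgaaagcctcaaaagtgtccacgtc
Col5a1 upstream: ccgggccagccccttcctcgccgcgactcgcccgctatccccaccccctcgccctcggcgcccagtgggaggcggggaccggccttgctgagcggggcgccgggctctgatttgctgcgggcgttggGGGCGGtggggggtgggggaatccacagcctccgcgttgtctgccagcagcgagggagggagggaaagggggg
On either strand, GGGCGG was in 32 of the 42 member windows (76.2%) and in 35.7% of all 32851 windows. Members had to reach 0.2 CPM, while the windows as a whole were not chosen by level. The same letters lie before Col9a2, which rose, and any part of them in these changes was not tested. The TATA motif, searched as TATAAA, was in 14.3% of member windows and 13.6% of all. GGAATG, a motif of the TEAD factors, was in 16.7% and 14.7%.

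The other fibrillar genes were Col2a1, Col3a1, Col5a2, Col5a3, Col11a1, Col11a2 and Col27a1, with log2 fold changes between -0.38 in Col27a1 and 0.31 in Col11a2. None of the 7 passed either fit. Col27a1, a fibrillar collagen of cartilage, was at 2.64, 2.31 and 3.14 CPM in DMSO and at 2.01, 2.34 and 1.86 CPM in MB-3, and its groups overlapped through DMSO B and MB-3 B. Col11a1 and Col11a2, the type XI chains that accompany type II collagen, were higher in MB-3 on average by 0.10 and 0.31 with standard errors of 0.17 and 0.30, and Col11a2 had 0.02 without MB-3 A.

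The direct comparison of both classes followed from these values. Averaged over its members as log2(CPM + 0.1), the basement membrane group stood at 4.82 ± 0.27 for DMSO and 4.66 ± 0.20 for MB-3 (SD, n = 3), and the fibrillar group at 0.95 ± 0.23 and 0.60 ± 0.12. In each class the groups overlapped and replicate B was lowest in both treatments. The basement membrane mean minus the fibrillar mean was 3.93, 3.82 and 3.89 in DMSO A, B and C and 4.10, 3.97 and 4.11 in MB-3, and these values did not overlap. The distance between the classes was 0.18 wider in MB-3 on the log2 scale, by 0.18, 0.15 and 0.22 within letters A, B and C. Among fibrillar genes the lowest log2 fold changes were those of Col1a1, Col1a2 and Col5a1, at -1.32, -1.27 and -0.91. The others lay between -0.38 in Col27a1 and 0.31 in Col11a2. The wider distance was thus not a shift of the whole fibrillar class. The median log2 fold changes of both classes were -0.11 and -0.10, and with a limit of 1 CPM for members they were -0.08 and -0.23. With a library left out, they ran from -0.24 without DMSO B to -0.0052 without MB-3 B for the basement membrane class, and from -0.24 without DMSO B to -0.07 without DMSO C for the fibrillar class. No test was made on such means, since members of a class are not replicates. With all members the distance widened by only 0.09 when 1 CPM was added in place of 0.1. It widened by 0.24 with only the 16 basement membrane and 6 fibrillar members that reached 1 CPM.

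**Figure D4:**
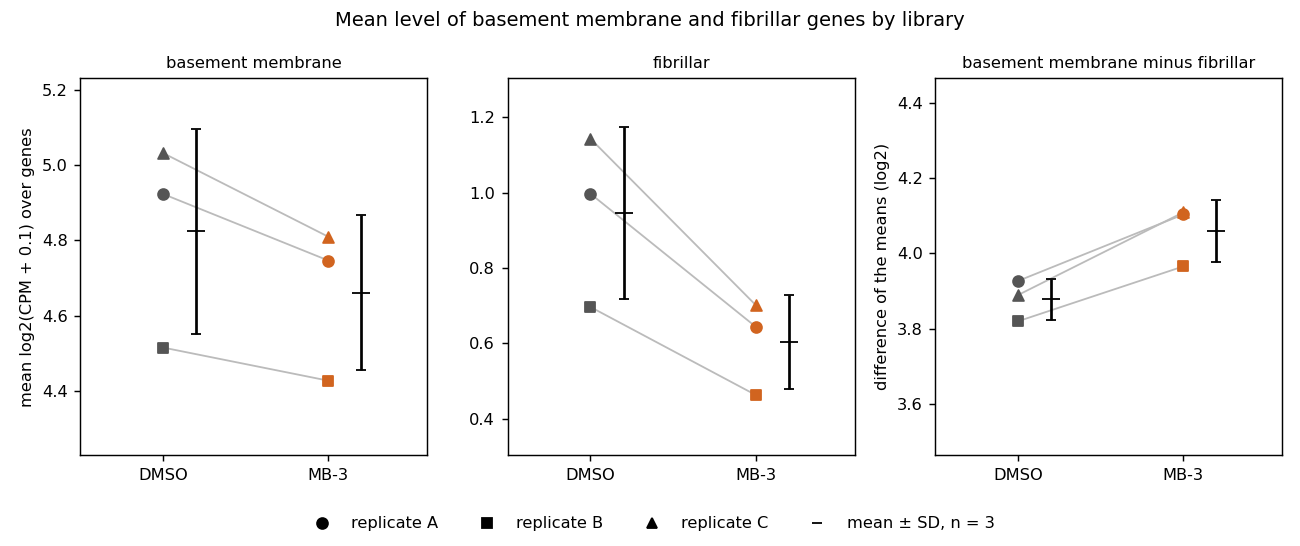
Mean of log2(CPM + 0.1) over the 18 basement membrane and the 10 fibrillar genes in each library, and the difference of both means, with lines joining libraries of the same letter and the mean ± SD of 3 libraries beside them; each axis spans 1 log2 unit. Both means fall in all letters, and the difference is higher in MB-3 (4.06 ± 0.08) than in DMSO (3.88 ± 0.05). Among the fibrillar genes Col1a1, Col1a2 and Col5a1 had the lowest fold changes.

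Type IX collagen, a fibril-associated collagen whose molecule joins 3 different chains, gave the single member that passed with treatment as the only term. Col9a2 (chr4:121039385-121055322) was at 5.07, 6.16 and 4.84 CPM in DMSO A, B and C and at 10.4, 9.06 and 7.51 CPM in MB-3. All MB-3 libraries were above all DMSO libraries, and the mean rose from 5.36 ± 0.70 to 8.99 ± 1.45 CPM (SD, n = 3), 1.68-fold. Its log2 fold change was 0.75 (standard error 0.13, edgeR adjusted p = 0.0485, or 5.4e-06 with the block). The call was close to the threshold and passed in 8 of 14 alternative fits, with edgeR adjusted p-values of 0.346 without MB-3 A and 0.241 without MB-3 B, and of 0.0514 with upper-quartile factors. Col9a3, another type IX chain, was at 3.07, 3.33 and 3.33 CPM in DMSO and at 2.61, 2.55 and 2.54 CPM in MB-3. These groups did not overlap, with MB-3 the lower, but the log2 fold change of -0.34 did not pass (edgeR adjusted p = 0.377, or 0.154 with the block), and Col9a3 shares exon bases with the opposite-strand gene Tcfl5. Per kb, the ratio of Col9a2 to Col9a3 went from 2.05 ± 0.25 with DMSO to 4.35 ± 0.64 with MB-3 (SD, n = 3). The last chain, Col9a1, was below 0.2 CPM on average over the 6 libraries, with 1 to 11 reads per library.

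The start of Col9a2 is shown because it holds GGGCGG on both strands (in capitals), 6 bases apart. The stretch is chr4:121039534-121039563 on the plus strand of GRCm38.p6, positions -32 to -3 from the RefSeq start, and it lies in an exon annotated for a longer transcript.
Col9a2 upstream: gaagatCCGCCCctgaccGGGCGGagctgg
Col12a1 and Col16a1, which bind to the surface of fibrils, had log2 fold changes of -0.88 (standard error 0.42) and -0.76 (standard error 0.45) at under 0.1 CPM per kb, and passed neither fit. They were -0.52 for Col12a1 without MB-3 B and -0.24 for Col16a1 without DMSO C. Col14a1, Col20a1 and Col22a1 lay between -0.07 and 0.09, and Col22a1 shares exon bases with an opposite-strand gene.

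Of the 11 other collagens, 0 passed either fit. They comprise network-forming, anchoring, transmembrane and beaded filament collagens, and all lay at or below 0.283 CPM per kb, the level of Col7a1, the collagen of anchoring fibrils. Col6a5, a type VI chain, was at 1.31, 1.10 and 1.03 CPM in DMSO and at 1.55, 2.12 and 1.47 CPM in MB-3. Its groups did not overlap, with a log2 fold change of 0.58 (edgeR adjusted p = 0.324, or 0.0855 with the block). Col13a1, a transmembrane collagen, was at 1.04, 0.976 and 0.985 CPM in DMSO and at 0.904, 0.478 and 0.932 CPM in MB-3. Here too the groups did not overlap, with MB-3 the lower, and the log2 fold change was -0.37 (edgeR adjusted p = 0.648), or -0.13 without MB-3 B, its lowest library. Col25a1, another transmembrane collagen, had the highest value of this group at 0.61, with a standard error of 0.47 and values of 0.24 without DMSO A and 1.20 without DMSO C.

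Of the 8 glycoproteins and proteoglycans, 0 passed without the block, and with it Sparc and Bgn were lower (3.9% of all genes) and 0 higher. Sparc was at 76.8, 64.1 and 112.6 CPM in DMSO A, B and C and at 56.4, 55.3 and 68.9 CPM in MB-3. MB-3 was lower within each letter and MB-3 C overlapped DMSO B, with a log2 fold change of -0.49 (standard error 0.16, edgeR adjusted p = 0.260, or 3e-06 with the block). Without DMSO C it was -0.23. Bgn, biglycan, a small proteoglycan that binds collagen fibrils, was at 1.35, 1.06 and 1.70 CPM in DMSO and at 0.783, 0.501 and 0.816 CPM in MB-3. Its groups did not overlap, and the log2 fold change was -0.96 (standard error 0.26, edgeR adjusted p = 0.196, or 0.0074 with the block, and 0.063 with the block and without letter B). Dcn, decorin, a close relative of Bgn, was below 0.55 CPM in every library, with a log2 fold change of -0.05 (standard error 0.41). Fn1, the most abundant member, was at 1660, 1182 and 1455 CPM in DMSO and at 1525, 1354 and 1400 CPM in MB-3. The MB-3 libraries lay within the DMSO range, and the log2 fold change of -0.01 (standard error 0.10) changed sign in 6 of 14 alternative fits. Vcan (versican) and Tnc (tenascin C) differed by 0.05 and 0.02, and the fibrillins Fbn1 and Fbn2 by -0.12 and 0.21, none past either threshold. With a library left out, Fbn1 ran from -0.24 to -0.04 and Fbn2 from 0.05 to 0.38. Tnc, Fbn1 and Fbn2 each share exon bases with an opposite-strand gene.

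Genes that act on the matrix were also more often lower than higher. Of 90 genes matched in 4 lists, 82 were tested, 0 passed with treatment as the only term (3 higher and 16 lower at an unadjusted p under 0.05), and with the block 16 were lower (19.5%) and 1 higher, beside 3.9% and 3.22% of all genes. Their median log2 fold change was -0.12, against -0.00 over all genes. In collagen synthesis and folding, 3 of 21 genes were lower with the block and 0 higher. Serpinh1, the collagen chaperone of the endoplasmic reticulum also known as Hsp47, was at 48.9, 33.0 and 75.8 CPM in DMSO and at 28.1, 22.2 and 37.3 CPM in MB-3, a log2 fold change of -0.85 (edgeR adjusted p = 0.206, or 6.8e-11 with the block). P3h4 and Fkbp10, which help to modify and fold procollagen, were the others, while the prolyl hydroxylase subunit P4hb had -0.03 and the low gene P3h2 -0.55 without a call.

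In processing and crosslinking, 4 of 14 genes were lower with the block and 1 was higher. Loxl4, a lysyl oxidase that crosslinks collagen, was at 2.37, 0.498 and 2.96 CPM in DMSO A, B and C and at 0.382, 0.341 and 0.886 CPM in MB-3. DMSO B lay among the MB-3 libraries, and the log2 fold change was -1.86 (standard error 0.52, edgeR adjusted p = 0.216). Pxdn, the peroxidase that crosslinks type IV collagen, had -0.40, and Bmp1, which trims procollagen, had -0.61. Adamts14, a procollagen N-proteinase, was the higher gene with 0.41 (edgeR adjusted p = 0.0544, or 0.00030 with the block), and its groups did not overlap. Its relative Adamts2 had -0.87 without a call. Among receptors, 5 of 23 were lower with the block, and 0 higher, with Cd44, a receptor for hyaluronan, at -1.33 and the laminin receptor subunit Itga3 at -0.49. Itgb8 had -0.76 and Itgb1, the beta chain shared by most matrix integrins, -0.13, without a call. Of 24 proteases and inhibitors, 4 were lower with the block and 0 higher. Adamts1, which cuts proteoglycans, had -0.85 and its relative Adamts5 also -0.85, the latter without a call.

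**Figure D5:**
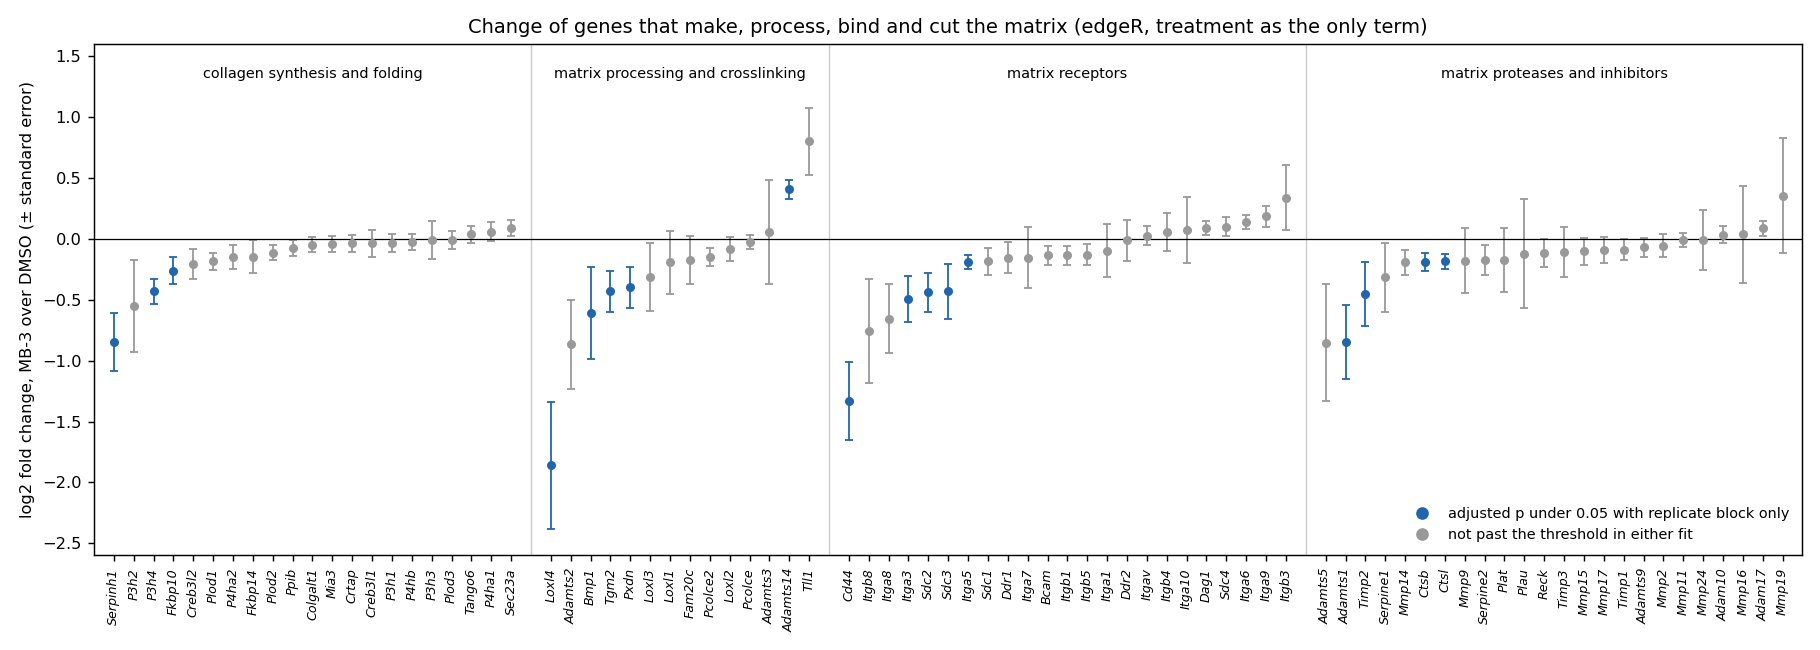
Log2 fold change in MB-3 over DMSO with its standard error for 82 genes that make, process, bind or cut matrix, in 4 lists, from edgeR with treatment as the only term. Blue genes pass the threshold only with the replicate block, 16 of them below 0, and Loxl4 is lowest at -1.86.

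Markers of other cell types were read in the same libraries, and 0 genes of the 3 lists passed with treatment as the only term. The 8 genes of primitive streak and mesoderm summed to 26.2, 16.5 and 49.1 CPM in DMSO A, B and C and to 11.2, 9.26 and 14.8 CPM in MB-3, with the T gene the most abundant at 12.3 CPM. Of 6 tested, 3 were lower with the block, beside 3.9% of all genes. T had a log2 fold change of -1.89 and Mixl1 one of -1.90 (edgeR adjusted p = 0.0611 and 0.0507). The 12 fibroblast markers summed to 101, 73.6 and 159 CPM in DMSO and to 65.9, 58.9 and 84.0 CPM in MB-3. The most abundant was Tagln, a contractile gene, at 31.3 CPM with -1.41, and Acta2 had -0.52. Both were lower with the block. All 6 tested fibroblast markers had a negative fold change, with a median of -0.46, where 50.3% of all genes tested were negative. Of the 6, 4 were lower in all 3 letters, beside 20.3% of all genes. The other genes of the list, Fap, Meox2, Prrx1, S100a4, Tcf21 and Twist2, were under 0.2 CPM. In these sums too replicate C was highest and B lowest in both groups. The 13 matched endoderm markers summed to 13.8, 12.0 and 16.3 CPM in DMSO and to 11.2, 11.8 and 13.7 CPM in MB-3. Dab2 was the most abundant at 7.41 CPM, Sox17 was under 0.2 CPM, and 0 of 11 passed either fit. Of 12 ES cell markers, 1 was lower with treatment as the only term (0.105% of all genes), Tbx3 with -0.40 (edgeR adjusted p = 0.0243). Utf1 and Fgf4 were higher with the block, beside 3.22% of all genes. The part of these cells in the matrix results was not tested. In bulk RNA, fewer cells of a type and less RNA per cell cannot be told apart.

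H3K9ac peaks could be set beside 12 members, those on chromosomes 1 and 10, where the peak annotation of the study was at hand for whole chromosomes. Positions are on mm9. The lists hold 11724 DMSO and 4673 MB-3 peaks, and 35.8% of the DMSO peaks were overlapped by at least 1 base of an MB-3 peak. A DMSO peak was assigned to 4 of the 12 members, among them Fn1, Lamc1 and Col18a1, the most abundant of the 12 per kb. The other 8, among them Lamb3, Col3a1 and Col5a2, had none. Of the 9 DMSO peaks of the 4 genes, 3 were overlapped by an MB-3 peak.

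The 3 peaks of Lamc1, chr1:155178407-155178722, chr1:155178784-155179309 and chr1:155179372-155179902, stand side by side, and no MB-3 peak overlapped any of them. Fn1 had a DMSO peak at chr1:71700146-71700850 with the nearest MB-3 peak 510 bases away. At Col18a1, the DMSO peak at chr10:76627993-76629210, 1218 bases wide, was overlapped by an MB-3 peak of 310 bases, and that at chr10:76654365-76654679 by none. The log2 fold changes of RNA for the same genes were 0.09 in Lamc1, -0.01 in Fn1 and 0.18 in Col18a1. Each list came from merged duplicates and holds positions without height or depth, so no spread between replicates was measured and a lost peak cannot be told from a peak just under the limit of the caller.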

How the data were processed

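RNA-seq libraries of 3 DMSO and 3 MB-3 cultures were grouped by their labels. The authors used Bowtie (mm10) for alignment and GenomicAlignments for counting over exons, and the deposited values are raw counts for each Ensembl gene. For ChIP-seq they aligned to mm9 with BWA, merged duplicates and called peaks with MACS2, and the deposited lists hold positions only. Versions, annotation release and use of strand are not given in the sources used here. Of the gene identifiers, 30540 matched a symbol in GENCODE M21 (GRCm38).

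Counts were filtered with filterByExpr, normalized by TMM and tested with edgeR 4.0.16 in R 4.3.3 (glmQLFit, glmQLFTest, treatment as the only term), with Benjamini-Hochberg adjustment over all 20027 genes and a threshold of 0.05. CPM was computed from the normalized library sizes, with 0.1 added before taking logs. Peaks were numbered from 1, and their gene names came from the part of the study's peak annotation used here. Figures were drawn with matplotlib 3.10.9.

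Libraries of the same letter deviated together from their group means (correlations of 0.184, 0.381 and 0.292 for A, B and C over 20027 genes, between -0.297 and -0.024 for unlike letters), so the letters were taken as pairs, from the data and not from the labels, and blocked values stand beside results they change. No library duplicated another. On data simulated for this comparison with 20027 genes, of which 200 changed, over 5 draws, the fit without the block recovered 79.5% of 2-fold changes and that with it 80.3%, and 9.67% and 12.7% of their calls were false. The simulated counts held no effect of the letter. These shares therefore cannot tell which fit is better on the real libraries, where same letters deviate together.

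The members, lists and tests were chosen with earlier results of these data known. Genes were named by rule: those called, those whose groups did not overlap, the 5 highest per kb in 3 roles, the 5 largest changes each way and those beside the CPM limit. In other lists they were the 2 largest changes and genes called, though not every gene called with the block is named. Alternatives were RLE and upper-quartile factors, 2 other filters, DESeq2 1.42.0, limma-voom (limma 3.58.1), edgeR's robust option, the block, each library left out, and other pseudocounts, CPM limits and overlap rules. Results for single cells were not analysed here, and the values of 1 member, which counts and class means include, are not reported here.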

Additional observations from a re-analysis of the deposited data

How the results depend on the processing

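Against 41 genes and 1 member called, upper-quartile factors gave 25 and 0, no filter on low counts 194 and 4, DESeq2 192 and 2, limma-voom 18 and 0, the robust option 66 genes, and the replicate block 1425 and 13. With upper-quartile factors and limma-voom, 14 members each had an unadjusted p under 0.05. Leaving out each library in turn gave 0 to 520 genes and 0 to 11 members, the highest without DMSO B. The block without 1 letter, chosen after seeing the data, gave 939, 912 and 1037 genes and 12, 10 and 10 members without A, B and C. The basement membrane median ran from -0.24 to -0.0052 and the fibrillar from -0.24 to -0.07 with a library left out. The widening between both classes was 0.092 with 1 CPM added, 0.24 with a limit of 1 CPM, and 0.15 to 0.23 with a library left out. Of the 9 DMSO peaks, 1 was shared when 50% had to be covered and 5 within 1000 bases. With both lists limited to peaks at least 500 bases wide, 0 of 6 were shared. The sign changed in limma-voom for Col5a2 (-0.025) and Fn1 (0.0056), and for Fn1 with the block (0.0057). With a library left out it also changed in Nid2 (-0.020 to 0.092), Hspg2 (-0.21 to 0.055), Col2a1 (-0.19 to 0.033), Col5a3 (-0.25 to 0.12), Col11a1 (-0.019 to 0.26), Col5a2 (-0.14 to 0.42), Col14a1 (-0.33 to 0.34), Fn1 (-0.13 to 0.11), Vcan (-0.043 to 0.13) and Tnc (-0.40 to 0.47). The cause was not tested. The block changed the call of 12 members, counted in the report. A level of 1 CPM stood for 42.9 to 50.2 reads a library, which limits what could be detected in genes below it.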
